A study of Mus musculus with 12 samples.

Results

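The lysosome genes described here are 35 genes in 3 classes: 14 subunits and accessory proteins of the vacuolar proton pump (V-ATPase), 10 cathepsins, and 11 other lysosomal genes. The last class holds membrane proteins, lipid and sugar hydrolases, cholesterol transporters, a calcium channel and transcription factors. The members were chosen by symbol with earlier results of these data known. Their shares beside all genes thus describe this list and are no independent support. Each member was represented by its brightest probe set row on average, and all 35 of 35 listed genes were measured among 19937 genes in the table. White adipose tissue of 18-week-old male mice was hybridised to 12 arrays in 4 groups of 3. The groups were wild type (WT) on regular chow, Ahnak knockout (KO) on regular chow, WT on a high fat diet (HFD; 60% fat, 20% carbohydrate and 20% protein) and KO on the same HFD, with 12 weeks of feeding. Ahnak encodes a very large scaffold protein. The labels name neither the fat depot, the strain nor the targeted exons, and they number the replicates without naming animals. The p-values therefore measure the spread between arrays, which may be technical.

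The lysosome is the acid compartment in which cells break down protein, lipid and sugar chains taken up from outside or delivered by autophagy. The V-ATPase acidifies it with a membrane sector, V0, that passes protons and a cytosolic sector, V1, that hydrolyses ATP. Cathepsins are its proteases, and most need the acid pH to be active. In the adipose tissue of obese animals, macrophages that take up lipid from fat cells are known to be rich in lysosomes. TFEB, TFE3, TFEC and MITF form the MiT/TFE family of transcription factors, which bind the CACGTG core of lysosomal gene promoters.

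The tissue label was checked against 13 measured adipocyte markers, whose mean log2 intensity lay between 11.68 and 12.50 on the 12 arrays; Adipoq, which encodes adiponectin, lay between 12.45 and 13.33. Ahnak was lower on every KO array (9.27 to 9.58) than on every WT array (9.68 to 10.27), although KO arrays kept a clear signal. The fall passed on HFD (-0.52 ± 0.13, SE; limma adjusted p = 0.021) and did not pass on chow (-0.69 ± 0.13, adjusted p = 0.38). For the members, the 3 WT arrays on HFD differed from each other more than the arrays of the other groups did. The median SD of the 35 members was 0.322 in WT on HFD and 0.0665 to 0.0786 in the other groups, and 30 members had their widest spread in WT on HFD. Over all genes the median SD was 0.108 in WT on HFD and 0.1 to 0.11 elsewhere. The limma fit shared 1 spread per gene across the 4 groups. For members widest in WT on HFD, the SE thus tends to be too large between genotypes on chow and between diets in KO. It tends to be too small where WT on HFD is compared.

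On HFD the lysosomal genes were lower in KO than in WT adipose tissue, and on chow no difference passed the test. In limma's fit over all 12 arrays, 18 of 35 members fell in KO on HFD, 0 rose and 17 did not pass, beside 6.85% of all genes that fell and 6.65% that rose (13.5% called in either direction). The threshold was 0.05 on the p adjusted by Benjamini-Hochberg across the 19937 genes. The difference was below 0 in 34 of 35 members, the exception being Ctsf, and its median was -0.53 on the log2 scale beside 0.02 over all genes. On 28 members every KO array lay below every WT array on HFD, where 13.5% of all genes did so. The fall exceeded 2-fold in 7 members, Atp6v0d2, Ctsk, Ctss, Lipa, Gusb, Ctsh and Atp6v1b2, beside 1.93% of all genes. Counts per class were 5 of 14 for the pump, 7 of 10 for the cathepsins and 6 of 11 for the others. The count of 18 was 28 without WT HFD replicate 1, where 19.7% of all genes were called, and 11 without WT HFD replicate 3, where 4.8% were. With only the 6 HFD arrays in the fit it was 0: the lowest adjusted p of a member was then 0.054, and 27 members had an unadjusted p under 0.05.

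**Figure D1:**
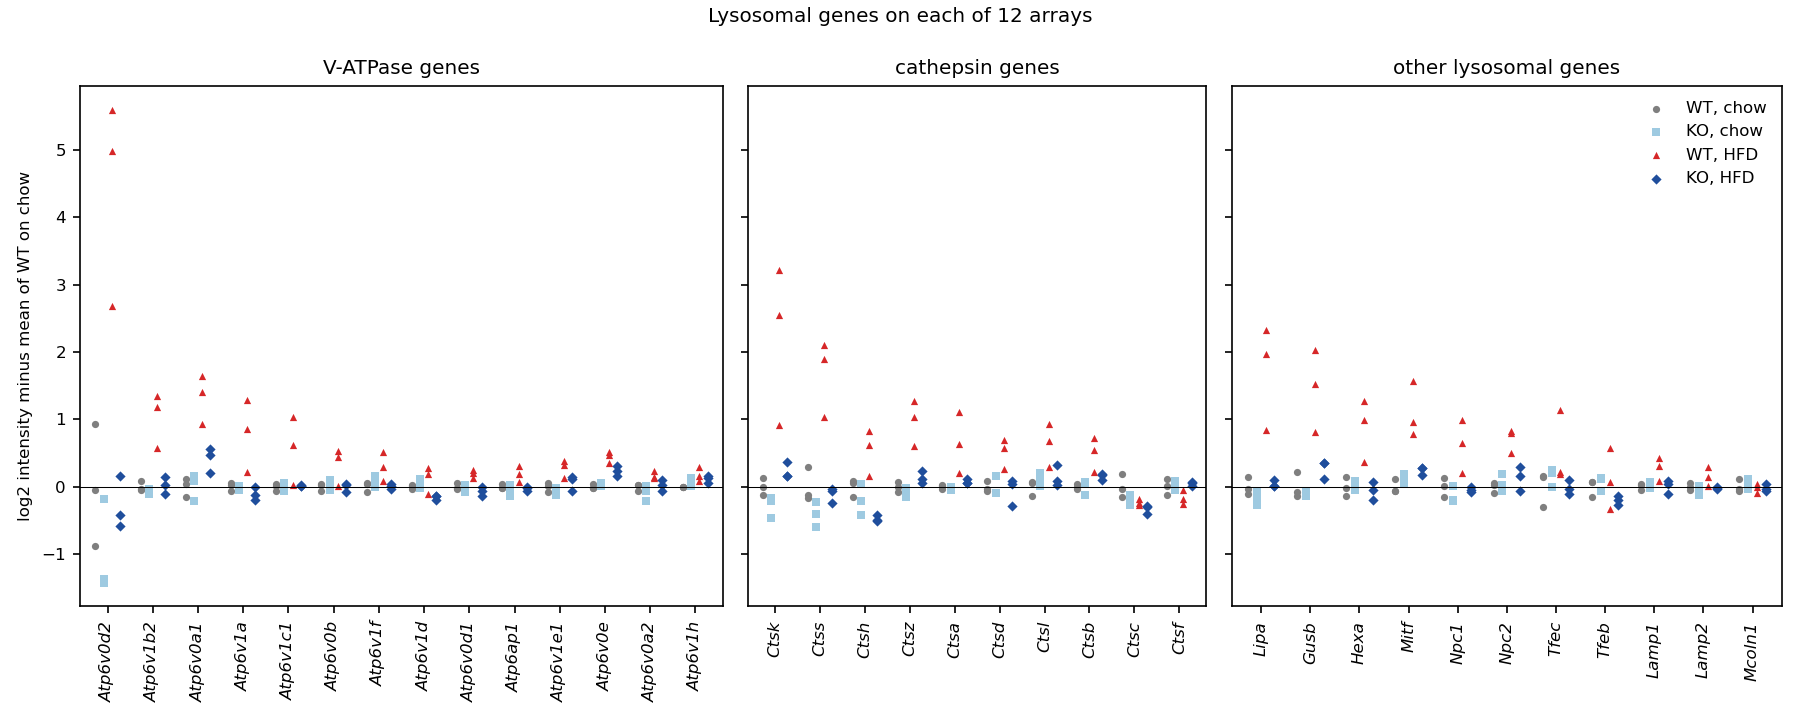
Log2 intensity of each of the 35 genes on each of the 12 arrays, minus that gene's mean in WT on chow (y axis), for V-ATPase, cathepsin and other lysosomal genes (panels); genes are ordered by the KO minus WT difference on HFD. The 3 WT arrays on HFD (red triangles) stand above the 9 other arrays for 22 of 35 genes, and the KO arrays on HFD (blue diamonds) lie near the chow arrays.

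In WT on HFD, 22 of 35 members had all 3 arrays above the 9 other arrays, and 0 had them all below. Over all genes these shares were 8.81% above and 8.28% below. The 22 were 8 pump genes, 7 cathepsins and 7 of the others. The direct comparison of HFD with chow in WT called 22 members higher and 0 lower, where 11.8% of all genes rose. The rise exceeded 2-fold in 8 members, beside 2.46% of all genes. This comparison and that of KO with WT on HFD share the WT arrays on HFD, so their values are given side by side below and not as support for each other.

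The V0 sector held the member with the largest difference. Atp6v0d2 encodes an isoform of the d subunit that is known from osteoclasts and macrophages. In the HFD groups it read 9.14, 12.05 and 11.43 in WT and 6.03, 5.87 and 6.61 in KO; on chow it read 7.39, 5.58 and 6.40 in WT and 6.27, 5.03 and 5.08 in KO. All WT arrays on HFD lay above all others, and the chow groups overlapped. It fell by 4.70 ± 0.68 in KO on HFD (26.1-fold, adjusted p = 0.0045), and it rose by 4.42 ± 0.68 with HFD in WT (adjusted p = 0.0018). The sizes depended on single arrays: in KO on HFD the difference was -5.57 without WT HFD replicate 1 and -4.11 without WT HFD replicate 2, and with HFD in WT it was 5.29 and 3.83. The KO arrays on HFD lay close to the array medians of 5.78 to 5.92, with no detection call. In KO, HFD moved it by 0.71 ± 0.68 (adjusted p = 0.59). Its array spread was the widest among the members in each of the 4 groups, with an SD of 1.53 in WT on HFD.

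Its paralogue Atp6v0d1, the ubiquitous d subunit, changed far less. It read 10.92 to 11.04 in WT and 10.66, 10.79 and 10.73 in KO on HFD, against 10.71 to 10.85 on the 6 chow arrays. The HFD arrays of the genotypes did not overlap, and KO on HFD lay within or slightly below the chow range. The fall was 0.26 ± 0.06 (adjusted p = 0.025), and the rise with HFD in WT did not pass (0.19 ± 0.06, adjusted p = 0.052). The call was lost without any of WT HFD replicates 2 and 3 and KO HFD replicates 1 and 3.

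The a subunit anchors the proton path in the membrane and exists as isoforms. Atp6v0a1 read 11.24, 11.95 and 11.71 in WT and 10.52, 10.78 and 10.87 in KO on HFD, and 10.10 to 10.47 on the chow arrays. Its KO arrays on HFD also stood above every chow array, as those of Atp6v0e did. It fell by 0.91 ± 0.17 in KO on HFD (adjusted p = 0.0084), rose by 1.32 ± 0.17 with HFD in WT (adjusted p = 0.00092), and had 0.41 ± 0.17 with HFD in KO (adjusted p = 0.18). The Atp6v0a2 isoform had -0.15 ± 0.07 in KO on HFD (adjusted p = 0.23). Its 2 rows had -0.15 and -0.25. Atp6v0e rose with HFD in WT (0.45 ± 0.06, adjusted p = 0.0015) and had -0.21 ± 0.06 in KO on HFD (adjusted p = 0.055). Atp6v0b, a proteolipid of the rotor ring, had -0.33 ± 0.11 (adjusted p = 0.082), with overlapping HFD arrays.

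In V1, the catalytic A subunit and the B2 subunit fell while the rest of the sector did not pass. Atp6v1b2 read 11.61, 12.39 and 12.22 in WT and 10.94, 11.06 and 11.19 in KO on HFD, and 10.94 to 11.12 on chow. Atp6v1a read 10.79, 11.85 and 11.42 in WT and 10.38, 10.56 and 10.45 in KO on HFD, and 10.50 to 10.62 on chow. In both genes the WT arrays on HFD lay above every other array, and replicate 1 was the lowest of them. Atp6v1b2 fell by 1.01 ± 0.16 (adjusted p = 0.0059) and Atp6v1a by 0.89 ± 0.19 (adjusted p = 0.015; not passed without WT HFD replicate 3 or KO HFD replicate 1). With HFD in WT they rose by 1.03 ± 0.16 (adjusted p = 0.0018) and 0.78 ± 0.19 (adjusted p = 0.014).

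Of the other V1 genes, Atp6v1c1, whose product links the head to the stator, had -0.55 ± 0.18 in KO on HFD (adjusted p = 0.072). WT HFD replicate 1 read 10.44, inside the KO and chow range of 10.34 to 10.47, while replicates 2 and 3 read 11.44 and 11.03. Atp6v1d (-0.27 ± 0.09), Atp6v1f (-0.29 ± 0.10) and Atp6v1e1 (-0.21 ± 0.09) had adjusted p of 0.075 to 0.14. Atp6v1h had the smallest difference among the pump genes (-0.07 ± 0.07, adjusted p = 0.62), with overlapping arrays. The accessory subunit Atp6ap1 had -0.22 ± 0.07 (adjusted p = 0.077). Pump genes thus spanned -4.70 to -0.07, with a median of -0.28. With HFD in WT 7 of the 14 rose, beside 11.8% of all genes. With HFD in KO 0 of the pump genes passed, beside 6.34% of all genes. The pump count of 5 on HFD was 11 without WT HFD replicate 1 and 3 without WT HFD replicate 3 or KO HFD replicate 1. Over all genes these fits called 19.7%, 4.8% and 4.53%, in that order.

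**Figure D2:**
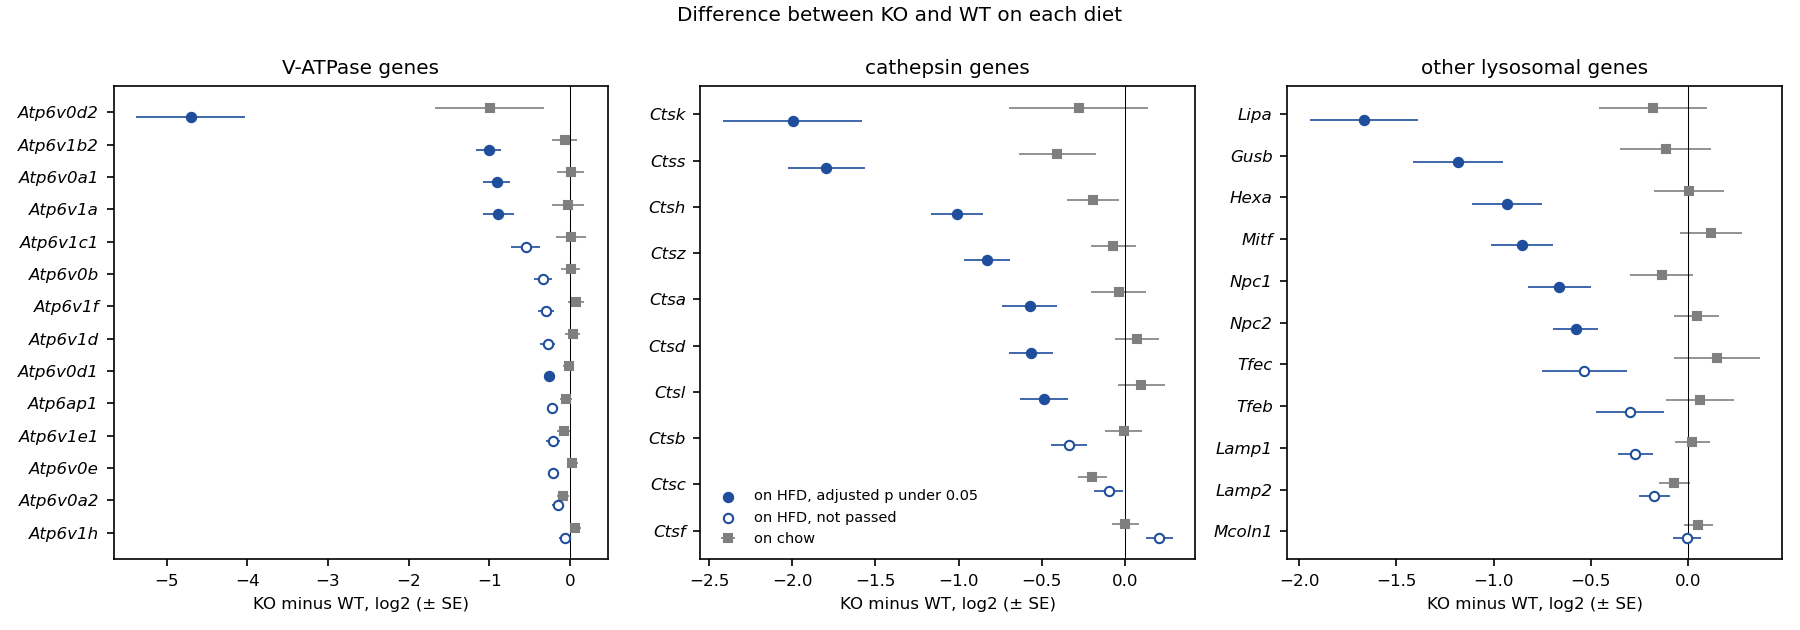
KO minus WT difference in log2 intensity (x axis, with the SE of the fit; the 3 panels have different ranges) for each gene on chow (grey squares) and on HFD (blue circles, filled where the adjusted p was under 0.05), n = 3 arrays a group. Filled circles mark 5 V-ATPase, 7 cathepsin and 6 other genes, and no chow difference passed.

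The other pump subunits and assembly factors were a list of 19 genes with 18 measured. In KO on HFD 4 fell, 0 rose and 14 did not pass (median -0.08), beside 6.85% of all genes that fell. The largest fall in the list was that of Tcirg1, the a3 subunit of osteoclasts and macrophages (-1.33 ± 0.32, limma adjusted p = 0.022). Atp6ap2 (-0.50 ± 0.14) and the regulators Wdr7 (-0.38 ± 0.10) and Dmxl1 (-0.30 ± 0.08) followed. Tcirg1 read 8.50, 10.23 and 9.70 in WT and 8.10 to 8.18 in KO on HFD, and 7.81 to 8.48 on chow. The isoforms known from osteoclasts and macrophages, Atp6v0d2 and Tcirg1, thus both fell by more than 2-fold, and the ubiquitous Atp6v0d1 by 1.20-fold. Other pump genes fell by nearly as much as Tcirg1 or less: Atp6v1b2 by 2.01-fold and the a subunit isoform Atp6v0a1 by 1.88-fold. The gaps between isoforms were not tested. A list of 12 osteoclast and cell fusion genes was read for comparison, and 2 fell and 10 did not pass, which is 16.7% called beside 13.5% of all genes. Dcstamp, a membrane protein needed for osteoclast fusion, fell by 2.12 ± 0.37 (adjusted p = 0.007) and Tnfrsf11a, the receptor RANK, by 1.21 ± 0.28 (adjusted p = 0.018), while Ocstamp (-0.28 ± 0.10), Mmp9 (0.63 ± 0.25), Acp5 (0.30 ± 0.14), Calcr (0.00 ± 0.11) and Oscar (0.04 ± 0.09) did not pass. Calcr and Oscar lay between 4.14 and 5.24 on all 12 arrays. Dcstamp read 5.76, 7.83 and 6.58 in WT and 4.54, 4.79 and 4.47 in KO on HFD. Its KO arrays lay below the array medians of 5.78 to 5.92, with no detection call, so the size of its fall is uncertain.

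Of the cathepsins, 7 fell in KO on HFD and 3 did not pass (median -0.57), beside 6.85% of all genes that fell. Ctsk, a cysteine protease of osteoclasts and macrophages that cuts collagen, read 8.88, 11.17 and 10.51 in WT and 8.32, 8.12 and 8.12 in KO on HFD. On chow it read 8.08, 7.96 and 7.83 in WT and 7.75, 7.79 and 7.50 in KO. All WT arrays on HFD were above all others, and KO lay below WT without overlap on chow as well. It fell by 2.00 ± 0.42 on HFD (3.99-fold, limma adjusted p = 0.012). The call was lost without WT HFD replicate 3, and the difference was -2.65 without WT HFD replicate 1. On chow Ctsk had -0.28 ± 0.42 (limma adjusted p = 0.995). That SE came mostly from the spread of WT on HFD (SD 1.18), as the chow SDs were 0.12 in WT and 0.15 in KO.

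Ctss, a protease that trims the invariant chain in antigen-presenting cells, had the smallest p among the cathepsins on HFD. It read 11.69, 12.75 and 12.54 in WT and 10.41, 10.58 and 10.61 in KO on HFD. On chow it read 10.94, 10.53 and 10.48 in WT and 10.43, 10.05 and 10.25 in KO. KO arrays were below WT arrays on both diets, but the chow difference did not pass (-0.41 ± 0.23, adjusted p = 0.92). On HFD it fell by 1.80 ± 0.23 (3.47-fold, adjusted p = 0.0043), and HFD in WT raised it by 1.68 ± 0.23 (adjusted p = 0.0012).

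Ctsh, an aminopeptidase, read 10.06, 10.72 and 10.52 in WT and 9.39, 9.48 and 9.40 in KO on HFD. On chow it read 9.98, 9.95 and 9.75 in WT and 9.94, 9.48 and 9.69 in KO. The KO arrays on HFD were at or below the lowest chow array. It fell by 1.01 ± 0.16 in KO on HFD (adjusted p = 0.0059), rose by 0.54 ± 0.16 with HFD in WT (adjusted p = 0.029), and had -0.28 ± 0.16 with HFD in KO (adjusted p = 0.33). Ctsz, a carboxypeptidase, read 12.31, 12.98 and 12.74 in WT and 11.77, 11.83 and 11.94 in KO on HFD, and 11.56 to 11.79 on chow. It fell by 0.83 ± 0.14 (adjusted p = 0.0061) and rose by 0.97 ± 0.14 with HFD in WT (adjusted p = 0.0013).

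The general lysosomal proteases moved less. Ctsd, the aspartyl protease, read 13.14, 13.57 and 13.46 in WT and 12.59, 12.92 and 12.96 in KO on HFD, and 12.78 to 13.04 on chow, and it fell by 0.56 ± 0.13 (adjusted p = 0.018). Ctsa, which protects other lysosomal enzymes, fell by 0.57 ± 0.16 (adjusted p = 0.041) and Ctsl, a cysteine endopeptidase, by 0.49 ± 0.14 (adjusted p = 0.045). The calls of Ctsa and Ctsl were lost without most single arrays, chow arrays included, and that of Ctsd without WT HFD replicate 2 or 3 or KO HFD replicate 1. Ctsl had overlapping HFD arrays, with 12.25 on WT replicate 1 and 12.28 on KO replicate 2. Ctsb, the related cysteine protease, rose with HFD in WT (0.49 ± 0.11, adjusted p = 0.0088) and had -0.34 ± 0.11 in KO on HFD (adjusted p = 0.069). The cathepsin count of 7 was 3 without WT HFD replicate 3, and 4 if either WT HFD replicate 2 or KO HFD replicate 1 was left out. Over all genes these fits called 4.8%, 6.3% and 4.53%, in that order.

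Ctsf and Ctsc stood apart from the other cathepsins. Ctsf was the 1 member with a difference above 0 in KO on HFD (0.21 ± 0.08, adjusted p = 0.12): it read 9.70, 9.49 and 9.57 in WT and 9.80, 9.76 and 9.82 in KO, without overlap. Ctsc, which activates granule proteases of leukocytes, read 11.40 to 11.48 in WT and 11.26 to 11.38 in KO on HFD, and on chow 11.51 to 11.85 in WT and 11.40 to 11.55 in KO. It had -0.10 ± 0.09 in KO on HFD (adjusted p = 0.54) and -0.24 ± 0.09 with HFD in WT (adjusted p = 0.072; -0.27 and 0.044 after quantile normalization). Among 14 measured genes of the remaining cathepsins, related proteases and their inhibitors, 4 fell, 1 rose and 9 did not pass in KO on HFD (median -0.06). Over all genes 6.85% fell and 6.65% rose. The protease legumain, Lgmn (-1.09 ± 0.20, adjusted p = 0.0083), the cathepsin inhibitor Cstb (-1.08 ± 0.24, adjusted p = 0.015) and the peptidase Tpp1 (-0.44 ± 0.12, adjusted p = 0.03) fell, and Ctso rose (0.33 ± 0.09, adjusted p = 0.027). A protease and an inhibitor of cathepsins were thus both among the genes that fell.

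In the third class Lipa had the largest difference in KO on HFD. Lipa encodes the lysosomal acid lipase, which splits cholesteryl esters and triglycerides. It read 11.26, 12.74 and 12.38 in WT and 10.43, 10.43 and 10.51 in KO on HFD. On chow it read 10.56, 10.38 and 10.30 in WT and 10.34, 10.23 and 10.14 in KO. All WT arrays on HFD were higher than all others. It fell by 1.67 ± 0.28 (3.18-fold, adjusted p = 0.0064) and rose by 1.71 ± 0.28 with HFD in WT (adjusted p = 0.0022).

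Npc1 and Npc2, the membrane and soluble proteins that export cholesterol from the lysosome, both fell in KO on HFD. Npc2 read 10.85, 11.15 and 11.18 in WT and 10.29, 10.51 and 10.64 in KO, and fell by 0.58 ± 0.11 (adjusted p = 0.011). Npc1 read 9.29, 10.08 and 9.74 in WT and 9.03, 9.01 and 9.08 in KO, and fell by 0.66 ± 0.16 (adjusted p = 0.022). The Npc1 call was lost without any of WT HFD replicates 2 and 3 and any KO HFD replicate, whereas that of Npc2 held without each single array.

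Both sugar hydrolases fell. Gusb, the beta-glucuronidase, read 9.89, 11.11 and 10.61 in WT and 9.20, 9.43 and 9.43 in KO on HFD, and 8.94 to 9.30 on chow. It fell by 1.18 ± 0.23 (2.27-fold, adjusted p = 0.01). Hexa, a subunit of beta-hexosaminidase, read 11.11, 12.01 and 11.73 in WT and 10.55, 10.70 and 10.81 in KO on HFD, and fell by 0.93 ± 0.18 (adjusted p = 0.0097). With HFD in WT, Gusb rose by 1.46 ± 0.23 (adjusted p = 0.0021) and Hexa by 0.88 ± 0.18 (adjusted p = 0.0059).

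The structural membrane proteins and the calcium channel showed small differences or none. Lamp1, the abundant glycoprotein of the lysosomal membrane, had -0.27 ± 0.09 in KO on HFD (adjusted p = 0.071) and rose with HFD in WT (0.27 ± 0.09, adjusted p = 0.048). Lamp2 had -0.17 ± 0.08 (adjusted p = 0.19). Mcoln1, the calcium channel of the lysosome, read 9.12, 9.25 and 9.20 in WT and 9.15, 9.25 and 9.17 in KO on HFD, and 9.14 to 9.32 on chow. All 4 groups overlapped, and the difference on HFD was 0.00 ± 0.07 (adjusted p = 0.99).

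Of 48 measured genes for further lysosomal enzymes and membrane proteins, 16 fell, 1 rose and 31 did not pass in KO on HFD (median -0.26). Over all genes 6.85% fell and 6.65% rose. Examples that fell are Laptm5, a lysosomal membrane protein of leukocytes (-1.20 ± 0.20, adjusted p = 0.006), Tpcn2, a cation channel (-1.25 ± 0.24, adjusted p = 0.0089), Gm2a, the activator of ganglioside breakdown (-0.41 ± 0.08, adjusted p = 0.01), and Man2b1, the lysosomal alpha-mannosidase (-0.60 ± 0.12, adjusted p = 0.011). The gene that rose was Sort1, a sorting receptor also known from adipocytes (0.45 ± 0.12, adjusted p = 0.034). With HFD in WT, 26 of the 48 rose, 2 fell (Sort1 and the channel Mcoln3) and 20 did not pass. Over all genes 11.8% rose and 12.3% fell in that comparison.

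Among the MiT/TFE factors, Mitf fell and Tfeb and Tfec did not pass. Mitf read 8.31, 9.09 and 8.48 in WT and 7.81, 7.70 and 7.80 in KO on HFD, and 7.47 to 7.72 on the chow arrays. It fell by 0.85 ± 0.16 (adjusted p = 0.0082), and its second, dimmer row had -0.96. It rose by 1.10 ± 0.16 with HFD in WT (adjusted p = 0.0014). Tfeb read 6.81, 7.72 and 7.21 in WT and 6.95, 6.88 and 7.01 in KO on HFD, so that WT replicate 1 was below every KO array (-0.30 ± 0.18, adjusted p = 0.33). Tfec read 5.49, 6.40 and 5.46 in WT and 5.36, 5.23 and 5.16 in KO (-0.53 ± 0.22, adjusted p = 0.14), and its mean ranked at percentile 33 of all genes, with no detection call to tell it from background. In the list of 17 genes of MiT/TFE factors and nutrient sensing, 2 fell and 15 did not pass, which is 11.8% called beside 13.5% of all genes: Tfe3 (-0.45 ± 0.10, adjusted p = 0.017) and Fnip2, a partner of folliculin (-1.22 ± 0.33, adjusted p = 0.032), fell.

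The promoters of the members were searched for the letters that MiT/TFE factors bind in lysosomal gene promoters. Members were chosen as lysosomal genes, so a share above that of all genes is not a result about KO or HFD. RefSeq promoters (GRCm38.p6, 250 bases before to 50 after each start) were matched for 27 of the 35 members. CACGTG, which reads the same on both strands, occurred in 10 of 27 members (37%), where 8.09% of all 27025 genes with a promoter entry held it. The longer form GTCACGTG, which contains CACGTG and was searched on both strands, occurred in 6 of 27 (22.2%) and in 2.55% of all genes. The longer palindromic form of the CLEAR element occurred in 0 of 27 and in 0.37% of all genes. GAGGAAGT, letters bound by the macrophage factor PU.1, occurred in Ctsc, Ctss and Gusb (11.1%, beside 3.69% of all genes). A match is a description of letters and not of binding.

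The 100 bases before the start are shown for a pair of genes with CACGTG whose difference on HFD did not pass, for 1 with it that fell, and for a pair without it in the 300 bases that fell by more than 3-fold; capitals mark CACGTG.
Mcoln1, chr8:3500419-3500518, plus strand: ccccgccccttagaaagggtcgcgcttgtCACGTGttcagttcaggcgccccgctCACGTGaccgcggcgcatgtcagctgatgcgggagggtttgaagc
Lamp1, chr8:13159061-13159160, plus strand: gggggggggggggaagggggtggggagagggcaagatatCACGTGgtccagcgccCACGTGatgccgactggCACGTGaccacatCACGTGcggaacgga
Ctsd, chr7:142387828-142387927, minus strand: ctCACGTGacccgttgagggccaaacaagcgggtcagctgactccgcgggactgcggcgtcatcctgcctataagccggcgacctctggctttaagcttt
Ctss, chr3:95526686-95526785, plus strand: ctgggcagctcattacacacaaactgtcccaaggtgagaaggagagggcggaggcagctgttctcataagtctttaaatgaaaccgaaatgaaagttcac
Lipa, chr19:34527475-34527574, minus strand: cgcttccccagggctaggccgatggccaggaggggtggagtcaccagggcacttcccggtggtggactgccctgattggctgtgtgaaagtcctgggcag

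Lamp1 and Mcoln1, with 4 and 2 copies of CACGTG in these stretches, had -0.27 and 0.00 in KO on HFD. Of the 10 members with the letters, 5 fell in KO on HFD (Atp6v0d1, Atp6v1a, Ctsa, Ctsd and Ctsl) and 5 did not pass (median -0.30, from -0.89 to 0.21). Of the 17 matched members without them, 9 fell and 8 did not pass (median -0.58), and Ctsk fell by the most. Over all genes 6.85% fell and 6.65% rose in that comparison. The difference between members with and without the letters was not tested. The stretches shown above were chosen with these differences known and do not stand for either set.

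On chow, no difference between KO and WT passed. Limma called 0 of 35 members, as it called 0 of all genes (0%). Ahnak, the targeted gene, did not pass there either (-0.69 ± 0.13, adjusted p = 0.38). A lack of calls thus does not show that the genotypes were alike. Among the members 1, Ctsc, had an unadjusted p under 0.05, beside 5.6% of all genes (-0.20 ± 0.09, adjusted p = 0.89). The differences ran from -0.99 ± 0.68 for Atp6v0d2 to 0.15 ± 0.22 for Tfec, with a median of -0.01. KO arrays lay below WT arrays without overlap for 2 members, Ctsk and Ctss (5.74% of all genes), and above them for 1, Atp6v1h (5.79%). For most members the shared spread made the chow SE wider than the chow arrays alone would give. With only the chow arrays in the fit, limma also called 0 members and 0 of all genes. An exact permutation test of 3 against 3 arrays could not give a two-sided p below 0.1.

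HFD in KO likewise called 0 of 35 members, with 2 at an unadjusted p under 0.05 beside 22.8% of all genes, although 6.34% of all genes were called (2.8% higher and 3.54% lower). The 2 were Atp6v0a1 and Atp6v0e. The median difference was 0.05, beside 0.52 for HFD in WT. Atp6v0e had 0.20 ± 0.06 (adjusted p = 0.086), Gusb 0.39 ± 0.23 (0.36) and Ctsk 0.51 ± 0.42 (0.52). As on chow, the shared spread made the SE between diets in KO wider for most members than the KO arrays alone would give. With only the KO arrays in the fit, Ctsk passed (adjusted p = 0.0496). The KO arrays on HFD stood clear of the KO chow arrays in 12 members, 8 higher and 4 lower (Atp6v1d, Ctsc, Ctsh and Tfeb), beside 28.8% of all genes.

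The difference between the diets in the KO effect was tested as an interaction, and no member passed. It called 0 of 35 members and 0.00502% of all genes, with 22 members at an unadjusted p under 0.05, beside 17.5% of all genes. The lowest adjusted p was 0.09 for Mitf, then 0.095 for Ctss (-1.39 ± 0.33) and 0.097 for Atp6v1b2 (-0.94 ± 0.22). Atp6v0d2 had -3.71 ± 0.96 (adjusted p = 0.11). A KO effect that differs between HFD and chow is thus not shown for these genes by this test. Without WT HFD replicate 1 the interaction called 23 members, among 2060 genes called in all.

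On HFD the macrophage markers were lower in KO than in WT, as the lysosomal genes were. None of the 24 macrophage markers is a member here. In KO on HFD 20 fell and 4 did not pass, beside 6.85% of all genes that fell and 6.65% that rose. The median of the markers was -0.98. The smallest p values were those of Mmp12, a macrophage elastase (-4.28 ± 0.47, adjusted p = 0.0032), Itgax, the integrin CD11c (-3.70 ± 0.46), Gpnmb (-3.77 ± 0.50) and Itgam, the integrin CD11b (-1.46 ± 0.20). The list's mean log2 level on HFD was 9.57, 10.63 and 10.28 on the WT arrays and 8.75, 8.70 and 8.84 on the KO arrays. On chow it was 8.57 to 8.95 in WT and 8.34 to 8.63 in KO. There 0 of the 24 passed, but 21 lay below 0 (median -0.21), while 18 of the 35 members did (median -0.01). With HFD in KO, 22 of the 24 markers lay above 0 (median 0.25), beside 22 of the 35 members (median 0.05). Cd68, itself a lysosomal membrane protein of macrophages, read 11.26, 12.83 and 12.37 in WT and 10.20 to 10.33 in KO on HFD. Adgre1, which encodes F4/80, was at 8.74 or more on every array, while Marco stayed between 5.52 and 6.08. The 35 members had a mean level of 10.52, 11.18 and 10.95 on the WT arrays and 10.12 to 10.23 on the KO arrays on HFD. On 28 of 35 members and 19 of 24 macrophage markers WT HFD replicate 2 was highest and replicate 1 lowest, an order found in 21.7% of all genes. The adipocyte markers had the reverse order in 11 of 13 cases, beside 26.3% of all genes, and their mean level was 12.34, 11.68 and 12.11 on the WT arrays on HFD. Of these, 6 rose in KO on HFD, among them Cebpa (0.69 ± 0.13) and the lipid droplet gene Plin1 (0.52 ± 0.10), 1 fell, the leptin gene Lep (-0.48 ± 0.12), and 6 did not pass. Of 11 stromal progenitor markers 3 fell (Pdgfrb -0.72 ± 0.10, Lum -1.28 ± 0.24 and Col1a1 -0.86 ± 0.18) and 8 did not pass; 4 of the 11 lay above 0, up to 0.36, and the median was -0.03. In tissue RNA, fewer cells of a type and less RNA per cell cannot be told apart, and the part of the macrophage markers in the lysosomal differences was not tested.

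**Figure D3:**
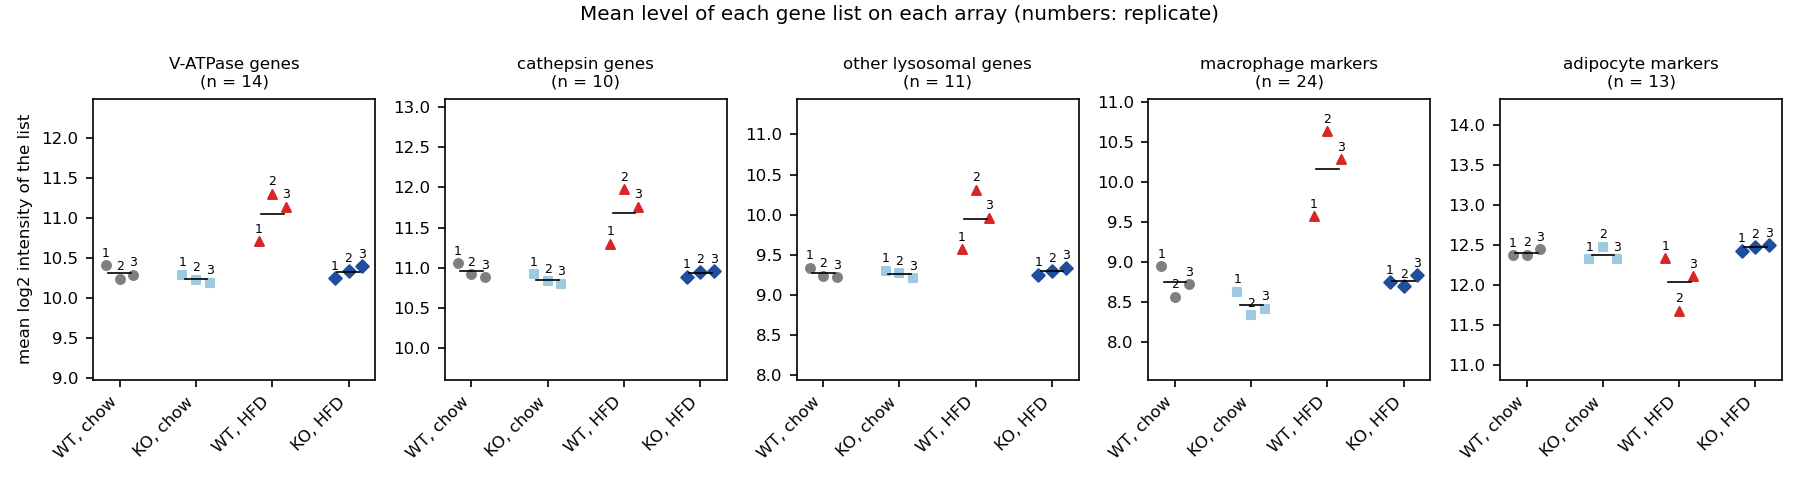
Mean log2 intensity (y axis; every panel spans 3.5 units) of the V-ATPase, cathepsin and other lysosomal genes and of macrophage and adipocyte markers, on each of the 12 arrays by group (x axis); digits are replicate numbers and lines are group means. In WT on HFD the 3 lysosomal classes and the macrophage markers are highest on replicate 2 and lowest on replicate 1, and the adipocyte markers the reverse.

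The other marker lists had few calls, to be read beside the 13.5% of all genes called in KO on HFD and the 26.8% at an unadjusted p under 0.05. Of 7 measured T cell markers 0 passed, with 2 at an unadjusted p under 0.05. Of 8 endothelial markers 1 rose, Tek (0.51 ± 0.14, adjusted p = 0.035), and 7 lay above 0, with a list median of 0.36. Of 5 B cell markers 1 fell, Cd79b (-0.43 ± 0.10, adjusted p = 0.015). Of 8 mast cell and granulocyte markers S100a8 fell (-1.18 ± 0.16, adjusted p = 0.0044) and Cma1 rose (0.48 ± 0.14, adjusted p = 0.047). The mean log2 level over the 12 arrays was 5.63 to 6.25 for the T cell list and 5.04 to 5.58 for the B cell list. These levels lay near or below the array medians of 5.78 to 5.92. With no detection call, a lack of signal and a lack of change cannot be told apart for the dim markers.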

How the data were processed

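The authors deposited 1 value table of 34760 probe set rows on a log2 scale (2.10 to 14.2) for 12 single-colour Affymetrix whole-transcript arrays. Per the submitters' processing notes the tool was affy, without a version. How the signals were background-corrected, summarized and normalized is not stated in those notes or the labels, and no detection calls were used. Array medians of 5.78 to 5.92 lay close together. The log base was inferred from the range. Rows were named through the platform annotation: 21640 carry 1 symbol, 1321 several (not used) and 11799 are unnamed. The row with the highest mean stood for each of 19937 genes; 3 of 35 members had more than 1 row.

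Group means were fitted to all 12 arrays in limma 3.58.1 (R 4.3.3), with 8 residual degrees of freedom, eBayes and Benjamini-Hochberg adjustment over all genes, two-sided at 0.05. Errors are the SE of the fit, n = 3 arrays a group; the number of arrays limits precision. The fit was tested on data simulated with the same spread in all groups, so its behaviour under the wider spread of WT on HFD was not tested. No columns were identical, and arrays of a group correlated at 0.985 to 0.996 across genes. Of 199 entries in the comparison lists 14 had no single-symbol row. All members are named; of each other list the counts are given and up to 4 genes with the smallest p in KO against WT on HFD, plus Sort1, Mcoln3, Lep, Acp5, Calcr, Oscar, Cd68, Adgre1, Marco and Adipoq, chosen after their values were seen. Members and lists were chosen with earlier results of these data known. Alternatives were another row choice, the compared groups alone, a replicate block, quantile normalization, a filter on the dimmest 25% of genes, array weights, a variance trend and leaving out each array.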

Additional observations from a re-analysis of the deposited data

How the results depend on the processing

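In KO against WT on HFD, the 18 calls among members became 17 to 19 with the mean of a gene's rows, the replicate block (17, all among the 18), quantile normalization, the dim-gene filter or a variance trend. Fitted on the 6 HFD arrays alone, the count was 0 for all members and for each class, and 0.0201% of all genes were called. With array weights it was 30, 13 of them pump genes, and 38.4% of all genes were called; the weight fit stopped before it converged and gave WT HFD replicate 3 a weight of 19.99. Leaving out single arrays gave 11 to 28 members, 3 to 11 pump genes, 3 to 8 cathepsins and 5 to 9 other genes. Over all genes these fits called 4.53% to 19.7%, and 11 of the 18 calls held in each of them. HFD against chow in WT called 15 to 27 members without single arrays, among 3072 to 5285 genes called in all. For HFD against chow in KO the count was 1 in a fit on the KO arrays alone, among 585 genes called in all. For the interaction it was 24 with array weights, among 2819 genes called in all, where the main fit called 1 gene. Without single arrays the interaction count was 0 to 23, and the 23 were among 2060 genes called in all. No member that was called changed sign in any alternative. Deviations of same-numbered replicates from their group means correlated at -0.41 to 0.38. With 3 arrays a group these correlations cannot tell whether the numbers pair the arrays.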
